A study of Drosophila melanogaster with 135 samples.

Results

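Cytoplasmic ribosomal protein genes were examined across the mRNA tables of a study of aging and Polycomb repressive complex 2 (PRC2), the enzyme complex that places H3K27me3, a repressive histone mark, in *Drosophila melanogaster*. A gene was a member when its symbol began with RpL, RpS or RpLP followed by a digit, which held for 92 of the 17023 genes in each table. Of these, 50 code for proteins of the large ribosomal subunit, 38 for proteins of the small subunit and 4 (RpLP0, RpLP0-like, RpLP1 and RpLP2) for the acidic stalk or a relative of it. The symbols left out sta, which codes for the remaining small subunit protein RpSA, and Rack1, which codes for a protein bound to the small subunit. Both are given beside the members.

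Ribosomal proteins are mostly needed in equal amounts for each ribosome, and their mRNAs are among the most abundant of any cell. In flies most of these genes are haploinsufficient, and loss of one copy gives the slow growth and short bristles of the Minute phenotype. Their promoters commonly carry a polypyrimidine initiator, a start site within a run of C and T bases that needs the TBP-related factor Trf2, and translation of the mRNAs is governed by the TOR pathway. Several ribosomal proteins are coded by more than 1 gene, and the second copy is often restricted to the germ line.

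Polyadenylated RNA came from muscle or heads of male flies, in 20 groups of 3 libraries, each library a pool of animals. WT was the line labelled 5905, and its muscle was taken at 3d and 30d of age while every other group was 30d old. The single mutants carried esc289, E(z)239, Pcl421, Su(z)12253 or p55192, alleles of PRC2 core or accessory subunits, and the double mutants carried esc289 with E(z)239 or Pcl421 with Su(z)12253. By the labels, replicates 2 and 3 of the Pcl groups were Pcl422 and Pcl423. The alleles were CRISPR deletions, heterozygous in the single mutants and trans-heterozygous in the double mutants, all backcrossed to WT, so a normal copy of each gene was present in every fly. p55 was sampled in muscle alone. From each table the mean normalized count of each of its 2 groups was used. Values per library were not analysed here, so no value below carries an error and no test was run, and a difference is read against the other genes of its own table and against the differences among WT controls.

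Each tissue had 3 WT controls at 30d, and groups sharing a control were scaled together. The single mutants of a tissue shared 1 control, each double mutant had its own, and WT muscle of the Pcl Su(z)12 set served as the older group when ages were compared. The summed means ran from 4455811 to 11591935 normalized counts in muscle and from 4842591 to 7683336 in heads. Of the targeted genes, the esc mean was 22.1 in WT and 7.05 in esc muscle. In heads it was 62.8 in WT, 37.5 in esc and 42.8 in E(z), so that there this level does not set the esc mutant apart from E(z). The mean of Caf1, another name of p55, was 134 in WT and 81.7 in p55 muscle. E(z), Pcl and Su(z)12 in their own single mutants lay between −0.23 and 0.17 on the log2 scale, and reads outside a deleted stretch do not test these labels. Muscle markers held 1.32% to 2.73% of the summed means in muscle, where 8 digestive enzyme genes of the gut held 0.581% to 1.41%, and photoreceptor markers held 5.61% to 6.62% in heads. The 8 male accessory gland genes summed to at most 26.6 normalized counts in any muscle group and 14.02 in any head group.

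To show how the members' start sites are built, 41-base windows were read from the genome (Release 6, dm6), from 20 bases before to 20 bases after the annotated start of each gene's Ensembl canonical transcript. The tetramer CTTT was searched on the sense strand at starts no more than 5 bases from the annotated start. It was found in 42 of 92 members (45.7%), against 5.66% of 13634 protein-coding genes and 6.78% of 944 other genes with a mean of at least 1000 in WT heads. Among members with a mean of at least 1000 in every group the share was 49.4% of 77, and among the other 15 it was 26.7%. TATCGATA, the site of the factor Dref, was searched on both strands from 250 bases before to 50 bases after the start, and 30.4% of members held it against 8.83% of all promoters.

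The windows of members on which the results turn are shown in pairs or as contrasts, 5′ to 3′, with CTTT in capitals where it lay near the start. RpL34b and RpS19a are the higher copies of pairs whose other copy lacked the motif. RpL35, RpL23A and RpLP1 are among the 3 highest ratios of comparisons described below, as are RpS27 and RpL24-like, which lacked it.
RpL34b: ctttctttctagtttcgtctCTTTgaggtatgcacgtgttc
RpL34a: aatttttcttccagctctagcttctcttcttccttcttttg
RpS19a: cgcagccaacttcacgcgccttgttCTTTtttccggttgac
RpS19b: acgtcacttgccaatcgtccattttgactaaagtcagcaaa
RpL35: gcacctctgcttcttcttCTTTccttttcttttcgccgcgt
RpL23A: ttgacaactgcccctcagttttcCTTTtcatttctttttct
RpLP1: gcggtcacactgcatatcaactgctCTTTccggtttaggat
RpS27: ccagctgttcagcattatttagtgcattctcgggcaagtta
RpL24-like: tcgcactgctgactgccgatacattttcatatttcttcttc
In dm6 these windows are chr3R:9401182-9401222 on the minus strand for RpL34b and chr3R:26059247-26059287 on the minus strand for RpL34a. They are chrX:16637874-16637914 on the plus strand for RpS19a and chr3R:23933510-23933550 on the minus strand for RpS19b. RpL35 is at chrX:5672714-5672754 and RpLP1 at chr2L:419932-419972, both on the plus strand. RpL23A is at chr3L:1668634-1668674, RpS27 at chr3R:25247494-25247534 and RpL24-like at chr3R:11431562-11431602, all on the minus strand. RpL34a also held pyrimidine runs within its window without a CTTT near the annotated start, and a start annotated a few bases away would change such a result.

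All 92 members could be placed in the genome, 87 by gene ID and 5 by symbol, with 19 on chromosome arm 2L, 21 on 2R, 14 on 3L, 23 on 3R, 14 on X and 1 on the fourth chromosome. Levels fell into 3 tiers. Of the members, 77 had means of at least 1000 in every one of the 20 groups, and 9 had means under 25 in every group. The 6 between were RpL24-like, RpL29, RpL34a, RpS14b, RpS15Ab and RpLP0-like, of which RpL29 reached 1000 in all groups but 1.

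In the WT control of the single mutants, the 77 high members ran from 1255 (RpL38) to 7252 (RpL3) in muscle with a median of 3009, and from 1012 (RpL39) to 7136 (RpL3) in heads with a median of 2605. RpL3 codes for a protein close to the peptidyl transferase centre. Levels between genes were compared per kb of the canonical transcript, since the tables give reads over exons. On that scale RpL41, which codes for the smallest ribosomal protein, was first in muscle at 8486 per kb, followed by RpL27A at 6621 and RpS18 at 6342. In heads RpL7A was first at 5861 per kb, followed by RpS18 at 5532 and RpL27A at 5342. RpL38 was the lowest high member per kb of transcript in both tissues, at 1239 in muscle and 1235 in heads. Its canonical transcript has 1013 bases with a coding length of 210, so ranks of this kind depend on the length taken. Ranks per kb of coding sequence were not computed.

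In muscle at 30d, the members together held 5.66% of the summed means in WT of Pcl Su(z)12, 5.91% in WT of esc E(z) and 5.78% in WT of the single mutants. The mutants lay between 5.65% (Pcl Su(z)12) and 6.39% (p55). In muscle of WT at 3d the share was 2.62%, the lowest of the 20 groups. In heads the WT controls held 4.40%, 5.16% and 4.46%, and the mutants 4.82% (Pcl Su(z)12), 5.67% (esc E(z)), 4.92% (esc), 5.03% (E(z)), 4.88% (Pcl) and 5.69% (Su(z)12). Every mutant head group was above its own control, and the WT control of esc E(z) was above 4 of the 6 mutant head groups.

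**Figure D1:**
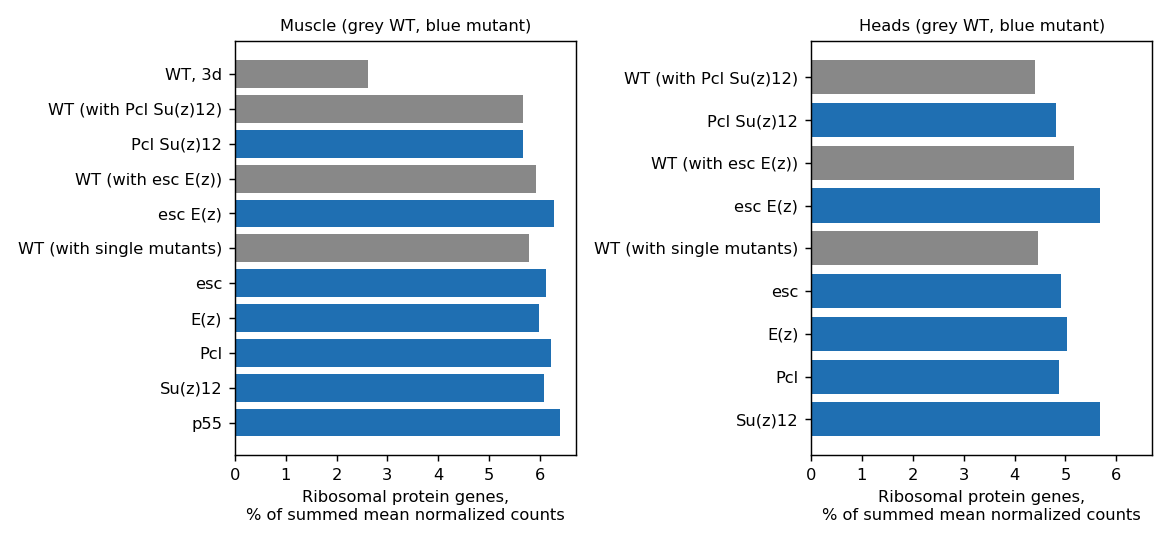
Share of the summed mean normalized counts held by the 92 ribosomal protein genes, as percent on the x axis, with 1 bar per group (muscle left, heads right, grey for WT and blue for mutants). WT muscle at 3d stands at 2.62%, and the 10 muscle groups at 30d stand between 5.65% and 6.39%.

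Aging of WT muscle was compared first, between 3d and 30d. The members were higher at 30d as a group, with a median log2 ratio of 0.44 (1.36-fold) over the 83 members with a mean of at least 10 over both groups, against 0.019 over all 9294 genes kept. Of these 83 members, 82 had a higher mean at 30d. At least 1.2-fold higher were 73 of 83, a fold that 28.4% of all genes kept passed in that direction, and 1 was at least 1.2-fold lower, which 27.9% of all genes were. Just inside the fold was RpL36 at 0.27, and just outside was RpS27A at 0.26.

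Large subunit, small subunit and stalk members had similar medians, at 0.44 (46 genes), 0.44 (33 genes) and 0.52 (4 genes). RpL35, whose protein lies at the exit of the nascent chain tunnel, went from a mean of 3615 at 3d to 6037 at 30d (log2 ratio 0.74), the largest ratio among members at 1000 or more. RpL24-like, which was below 1000 at 3d, had the largest ratio of all members kept, from 689 to 1228 (0.83). RpS27, a small subunit protein with a zinc finger, went from 2665 to 4194 (0.65). RpLP0, the base of the stalk that recruits translation factors, went from 6152 to 9515 (0.63). RpL15, of the large subunit, was the high member with the smallest ratio, from 5349 to 5790 (0.11), and RpL38 followed from 2498 to 2792 (0.16). The single member with a lower mean was RpS15Ab, the minor copy of RpS15A, from 261 to 213 (−0.29).

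The high members were spread much less than other genes of their level. Their SD over 78 genes was 0.13 on the log2 scale, against 0.82 over all 1429 genes with a mean of at least 1000, whose median was −0.15. Members with CTTT near the start (38 of the 77 high members) had a median of 0.44 and those without it (39) a median of 0.49, so the start motif did not divide them beyond the quartiles of either set, 0.33 to 0.50 and 0.39 to 0.57.

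**Figure D2:**
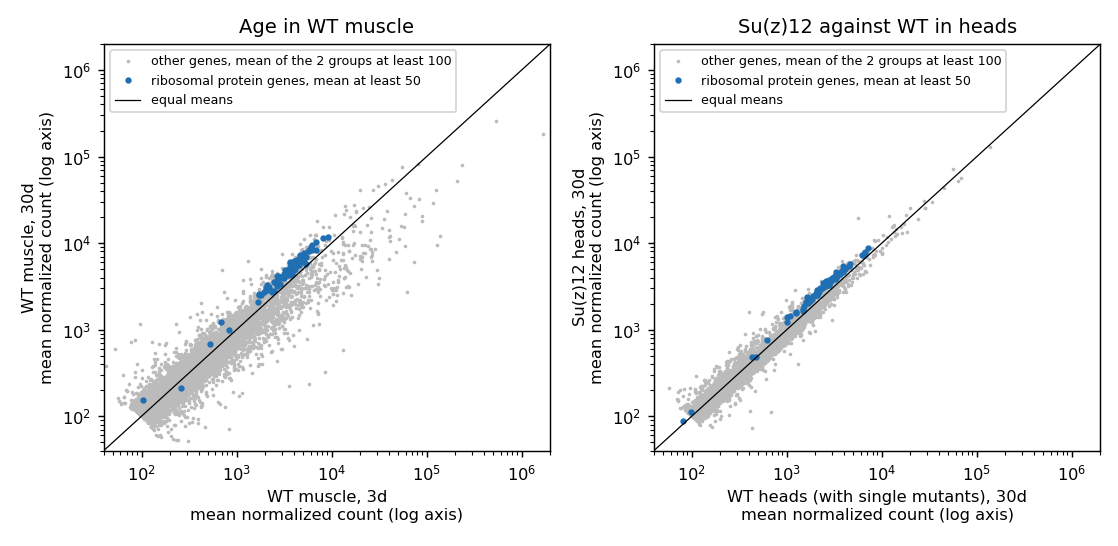
Mean normalized count of each gene in the 2 groups of a comparison, on log axes, for WT muscle at 30d against 3d (left) and Su(z)12 against WT heads (right). Blue points are ribosomal protein genes with a mean of at least 50, grey points other genes with a mean of at least 100, and the blue points lie above the line of equal means in both panels except RpS15Ab on the left.

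Genes that act with the ribosome were read on the same lists in every comparison. At 30d sta went from 5684 to 9049 (0.67) and Rack1 from 4740 to 6357 (0.42). Of 25 genes of ribosome biogenesis and RNA polymerase I, 18 were at least 1.2-fold higher (72.0%, against 28.4% of all genes) and none lower, with a median of 0.46. Among them dbe, of small subunit assembly, went from 60.6 to 118 (0.96) and nop5, of the box C/D snoRNP, from 119 to 190 (0.68). Translation factors were divided, with 14 of 46 at least 1.2-fold higher (30.4%, near the background) and 5 lower (median 0.16). The elongation factor gene Ef1alpha48D went from 27189 to 40839 (0.59), whereas the initiation factor gene eIF5 went from 1876 to 1407 (−0.42). Of 72 mitochondrial ribosomal protein genes kept, 24 were at least 1.2-fold higher (33.3%) and 16 lower, with a median of 0.12.

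Regulators of ribosomal protein synthesis went both ways. dm (Myc), a transcription factor that drives ribosome production, went from 212 to 365 (0.79), and larp, which binds mRNAs with a terminal oligopyrimidine tract, from 4291 to 2265 (−0.92). Trf2 went from 648 to 542 (−0.26). Thor, the 4E-BP translation repressor, went from 2205 to 1877 (−0.23), and Xrp1, a stress factor induced by ribosomal protein deficiency, from 5825 to 7992 (0.46). In all, 4 of these 19 genes were at least 1.2-fold higher (21.1%, against 28.4% of all genes) and 3 lower (15.8%, against 27.9%). Both shares were below those of all genes.

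The composition of the muscle RNA differed with age as well, and its part in the members' ratio was not tested. The 15 muscle markers summed to 316371 at 3d and 117059 at 30d, with 14 of 15 lower at 30d. Genes of the mitochondrial genome held 25.9% of the summed means at 3d and 9.09% at 30d. The 8 gut genes summed to 67379 and 72160, and the 6 fat body genes to 3691 and 4257. The summed means themselves were 11591935 at 3d and 7305280 at 30d, so that scaling both groups to equal sums would raise the members' median to 1.11. In such bulk samples, fewer muscle cells and less RNA per muscle cell cannot be told apart.

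In mutant muscle at 30d the members stayed close to WT. Against the shared control the member median was lowest for E(z) at 0.030, followed by esc at 0.077, Pcl at 0.080, Su(z)12 at 0.092 and p55 at 0.17. Against their own controls, esc E(z) stood at 0.049 and Pcl Su(z)12 at 0.0093. The median of all genes kept lay between −0.011 and 0.0047 in these 7 comparisons. The member medians of the 3 WT muscle controls, each centred on all genes, differed by up to 0.056 between controls, so the medians of E(z), esc E(z) and Pcl Su(z)12 were of the size seen between WT groups, and the medians of the other 4 mutants were above it. Centred instead on genes with a mean of at least 1000, a scaling chosen after seeing the data, the WT controls differed by up to 0.030. Under it esc, at 0.029, was no longer above that gap, while Su(z)12 at 0.051 and esc E(z) at 0.033 were above it. At equal sums esc E(z) was also above the largest WT gap, 0.054.

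Few members passed the 1.2-fold mark in muscle. In esc none of 83 was at least 1.2-fold higher (10.9% of all genes) or lower (12.1%). In E(z) none was higher (9.48%) and 1 was lower (11.9%). In Pcl 1 was higher (10.3%) and none lower (9.64%). In Su(z)12 1 was higher (11.7%) and 1 lower (12.5%). In p55 6 were higher (12.4%) and none lower (11.2%). In esc E(z) 2 were higher (9.30%) and none lower (10.5%), and in Pcl Su(z)12 none was higher (9.92%) and 2 were lower (9.40%). In each of these 14 counts the members' share lay below that of all genes. The 2 sets differ in level, since 78 of the 83 members in esc had a mean of at least 1000 and all genes kept began at 10. In esc the SD of the log2 ratios was 0.30 over all genes, 0.23 over genes at 1000 or more and 0.059 over the high members. Shares at matched levels were not computed.

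**Figure D3:**
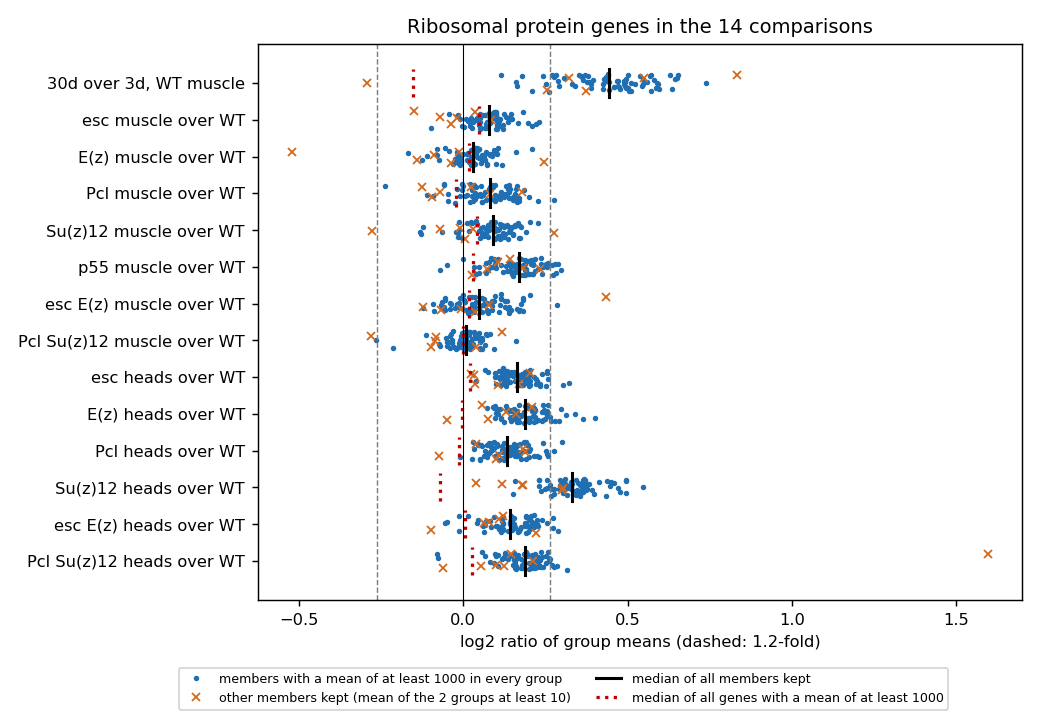
Log2 ratio of the second to the first group mean for each ribosomal protein gene (x axis) in the 14 comparisons (rows). Blue points are members with a mean of at least 1000 in every group, orange crosses the other members kept, black bars the member medians, red dotted bars the medians of all genes with a mean of at least 1000, and dashed lines 1.2-fold; most members lie past the mark in WT muscle with age (73 of 83) and in Su(z)12 heads (70 of 83).

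Members past the mark in p55 muscle included RpL22, RpL18, RpL7A, RpLP1 and RpS14a, with ratios of 0.27 to 0.30. RpL22 went from 2755 in WT to 3382 in p55, and to 3334 in Pcl (0.28). In p55, 80 of 83 members were higher than WT, and the median of other short transcripts (under 1000 bases) at 1000 or more, 104 genes, was 0.18, near the members' own 0.17. RpS3A, RpL5 and RpL38 were the members of 50 or more that were not higher in p55.

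RpL24-like varied most among the members of muscle, and its log2 ratio with age in WT, 0.83, was the largest of the members kept. The fly gene is the counterpart of a yeast factor that holds the place of RpL24 during assembly of the large subunit. Its mean was 909 in the WT control of the single mutants, 634 in E(z), 750 in Su(z)12, 852 in Pcl, 932 in esc and 1004 in p55. It was 817 in the WT control of esc E(z) and 1105 in esc E(z), and 1228 and 1157 in WT and Pcl Su(z)12. E(z) and Su(z)12 were therefore below their control (−0.52 and −0.28) and esc E(z) above its own (0.44), and the 3 WT controls spanned 817 to 1228 on scales set apart. In heads it was 472 in the control of the single mutants and 484 for esc, 535 for Pcl, 491 for E(z) and 485 for Su(z)12, within 0.18 of WT on the log2 scale in each.

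RpL23A, a large subunit protein beside the exit tunnel, was among the 3 highest ratios in 7 comparisons that used 4 different controls. In muscle its mean was 5145 in WT and 6041 in esc, 5948 in E(z) and 6027 in Su(z)12, and 5868 against 7156 in esc E(z) (0.29). In heads it was 3902 in WT against 4820 in esc (0.30) and 5157 in E(z) (0.40), and 6161 against 7521 in esc E(z) (0.29). In Pcl Su(z)12 it was 8222 and 8327 in muscle. The comparisons of single mutants share their control, so these values repeat its level. Of the exon bases of RpL23A, 31.9% overlap other annotated genes, and reads there may have been left out of the count.

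RpL26 and RpS12 were below WT in Pcl Su(z)12 in both tissues, and below it in some other mutants. RpL26, another large subunit protein of the exit region, was 6438 in WT and 5360 in Pcl Su(z)12 muscle (−0.26), and 4624 and 4389 in heads (−0.075). RpS12, which in fly imaginal discs is required for cells short of ribosomal proteins to be eliminated, was 2582 and 2226 in muscle (−0.21) and 2188 and 2072 in heads (−0.079). In heads these were the lowest of all members at 50 or more, beside a member median of 0.19. RpL26 was also below WT in esc E(z), at 4377 and 4114 in muscle (−0.089) and at 4573 and 4401 in heads (−0.055), but above it in every single mutant. RpS12 was below WT in Su(z)12 muscle, at 1835 and 1679 (−0.13), in E(z) muscle (−0.057) and in esc E(z) muscle (−0.041).

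In heads the members were above WT in each mutant. Against the shared control the member median was lowest for Pcl at 0.13, followed by esc at 0.16, E(z) at 0.19 and Su(z)12 at 0.33. Against their own controls, esc E(z) stood at 0.14 and Pcl Su(z)12 at 0.19, while the median of all genes kept lay between −0.0055 and 0.0046. All 83 members were higher in Su(z)12 and in esc heads, while 81 were in Pcl and 82 in E(z). Higher means were found for 78 of 83 in esc E(z) and for 81 of 84 with Pcl Su(z)12. For scale, WT head controls were compared, centred on all genes. That of esc E(z) exceeded that of Pcl Su(z)12 by a member median of 0.30 and that of the single mutants by 0.21. At least 1.2-fold higher were 53 and 28 of 83 members, against 8.44% and 11.2% of all genes. No member was at least 1.2-fold lower, against 6.52% and 8.77% of all genes. On this scale groups of 1 genotype, age and tissue thus differed by more than the median of 5 of the 6 head mutants, and by a little less than that of Su(z)12. The largest WT gap was 0.23 at equal sums. Centred on genes with a mean of at least 1000, a scaling chosen after seeing the data, it was 0.28. In Su(z)12 heads the median of such genes was −0.071, so that centring would raise the members' 0.33.

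**Figure D4:**
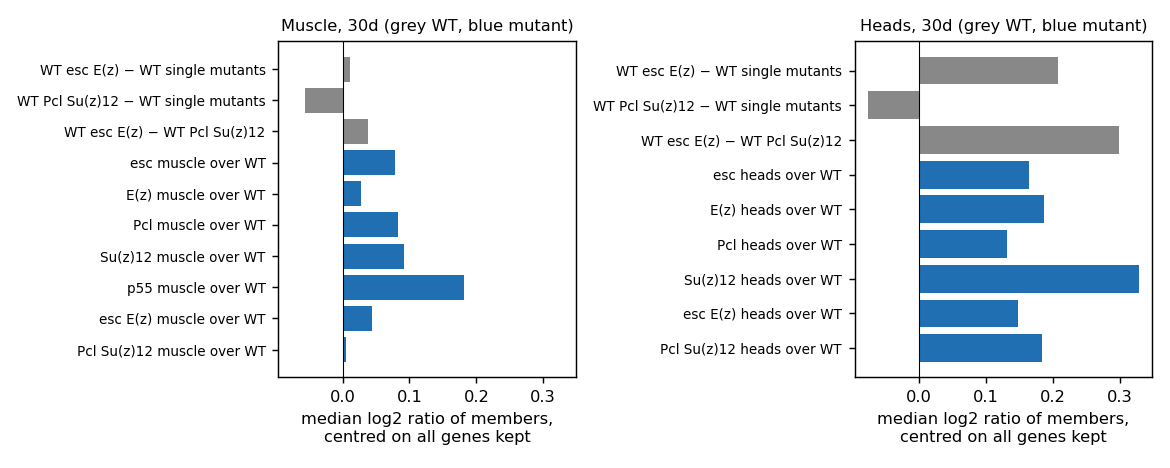
Median log2 ratio of the ribosomal protein genes kept, centred on the median of all genes kept, between WT controls (grey) and between each mutant and its control (blue), for muscle (left) and heads (right) at 30d. The largest gap between WT controls is 0.30 in heads and 0.056 in muscle, and Su(z)12 heads stand at 0.33.

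In Su(z)12 heads 70 of 83 members were at least 1.2-fold higher (16.2% of all genes) and none lower (15.2%). At a fold of 1.5 none of them remained. The median ratio was 1.26-fold, and the 78 members at 1000 or more lay between 0.15 and 0.55. The stalk genes RpLP1 and RpLP2 went from 3264 to 4599 (0.49) and from 2428 to 3425 (0.50). RpL41 went from 1613 to 2355 (0.55), the largest ratio, and RpS27A, made as a fusion with ubiquitin, from 2059 to 2905 (0.50). RpS12 went from 1475 to 1637 (0.15), the smallest ratio among the high members, and RpL24-like and RpLP0-like were at 472 and 485 (0.040) and at 81.7 and 88.7 (0.12). The median of the 1036 genes at 1000 or more was −0.071, and the SD of the high members was 0.074 against 0.32 over those genes.

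Beside them in Su(z)12 heads, sta went from 4838 to 6041 (0.32) and Rack1 from 4345 to 5819 (0.42). Against the 16.2% of all genes at least 1.2-fold higher, 9 of 46 translation factors (19.6%) were so and 1 was lower, among the higher ones Ef1beta from 1326 to 1888 (0.51) and Ef1gamma from 3606 to 4858 (0.43). The shares were 22.2% of 72 mitochondrial ribosomal protein genes (16 higher, none lower) and 28.0% of 25 ribosome biogenesis genes (7 higher, none lower), all far nearer to that background than the members' 84.3%. Among the regulators, dm (Myc) went from 157 to 117 (−0.42), Trf2 from 435 to 349 (−0.32), Thor from 521 to 648 (0.32) and Xrp1 from 4140 to 3724 (−0.15).

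In Su(z)12 heads neuron markers were lower while the members were higher, and the ratios of other genes differed with transcript length. The part of either in the members' ratio was not tested. The 8 neuron markers were all lower, with sums of 25039 in WT and 19279 in Su(z)12 (the lowest of the 9 head groups), while the 10 photoreceptor markers summed to 308169 and 285043 with 5 higher and 5 lower. Other genes at 1000 or more had a median of 0.17 when their transcript was under 1000 bases (66 genes) and −0.11 when it was longer (861 genes). In the other head mutants the short transcripts had medians between −0.026 and 0.049.

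In the remaining head comparisons the counts past 1.2-fold were near or below the background. In esc 2 members were higher (7.45% of all genes) and none lower (7.80%). In E(z) 8 were higher (9.57%) and none lower (8.94%), in Pcl 2 were higher (8.97%) and none lower (9.79%), in esc E(z) 3 were higher (9.97%) and none lower (9.63%), and in Pcl Su(z)12 6 were higher (8.43%) and none lower (7.62%). The 8 in E(z) were RpL23A, RpL39, RpL41, RpL31, RpS27A, RpL27A, RpLP2 and RpS23, with ratios of 0.27 to 0.40. The 3 in esc E(z) were RpL23A, RpLP1 and RpL7A. The 2 in esc were RpLP1, at 3264 in WT and 4083 in esc (0.32), and RpL23A. In Pcl they were RpL41, from 1613 to 1985 (0.30), and RpL31, from 1851 to 2243 (0.28). In Pcl Su(z)12 RpL28 was first among the high members, from 2294 to 2855 (0.32), followed by RpS27A and RpS29 at 0.29 and 0.28.

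Heads and muscle of WT differed little in the makeup of their ribosomal protein mRNAs. Each of the 77 high members was taken as a share of the members' sum in each WT control at 30d, which removes the scaling between tables. No member was at least 1.2-fold higher in heads in all 3 controls and none at least 1.2-fold higher in muscle in all 3. RpL41 had the lowest head to muscle ratio, with log2 values of −0.57 to −0.17 over the controls, and RpL40, the other ubiquitin fusion, had the highest, 0.22 to 0.29.

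The 13 pairs of related genes described here divided into 5 in which both copies held over 1% and 8 in which the lower copy was listed at or near 0. RpS14b held 23.6% to 25.5% of its pair with RpS14a in muscle and 26.6% to 27.7% in heads. RpL34a held 17.8% to 20.6% of its pair in muscle and 20.1% to 22.1% in heads. RpL24-like held 15.4% to 26.7% in muscle and 17.1% to 21.1% in heads. RpS15Ab held 3.74% to 7.41% in muscle, the highest being WT at 3d, and 3.89% to 4.70% in heads. RpLP0-like, the counterpart of a yeast factor of large subunit assembly, held 1.27% to 1.67% and 1.44% to 2.08%. The shares of RpS14b and RpL34a thus stayed within narrow ranges in all mutants.

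RpS14a with RpS14b and RpS15Aa with RpS15Ab share stretches of identical sequence. Of the 100-base windows of their transcripts, the length of the reads, 7.84% of RpS14a, 12.5% of RpS14b, 8.61% of RpS15Aa and 10.2% of RpS15Ab occurred more than once in the genome or transcripts, and reads from those windows cannot be assigned. No other member reached 5%. The levels of these 4 genes are uncertain to that extent. In the current annotation, exons of 11 members overlapped other genes over more than 10% of their bases, among them RpS9 (41.0%), RpL22 (34.3%) and RpL7-like (100%). Reads were counted without strand, and reads over both genes may have been left out, so that the value of RpL7-like near 0 says nothing of its level.

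The other 8 minor copies of these pairs were at or near 0. RpL10Aa, RpL22-like, RpL37b, RpL7-like, RpS10a, RpS19b, RpS28a and RpS28-like stayed under 10 normalized counts in all 20 groups, with the highest value, 5.83, for RpL22-like in Pcl Su(z)12 muscle. The smallest mean above 0 in any group was 0.216 to 0.366, so most of these values rest on a few reads. RpL22-like, a testis-enriched copy of RpL22, was listed at 2.29 in WT muscle at 3d, 2.35 in WT and 5.83 in Pcl Su(z)12, 2.64 in WT and 0 in esc E(z), and at 0 in WT, 0 in E(z), 1.01 in esc, 1.30 in Pcl, 1.19 in p55 and 4.84 in Su(z)12. No order of genotypes can be read from such counts. Of 14 testis marker genes, bol was at 1042 in WT and 1004 in Pcl Su(z)12 muscle, while the other 13 summed to 38.7 and 57.3, with 10 higher and 3 lower in Pcl Su(z)12, and their part in the RpL22-like values was not tested.

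**Figure D5:**
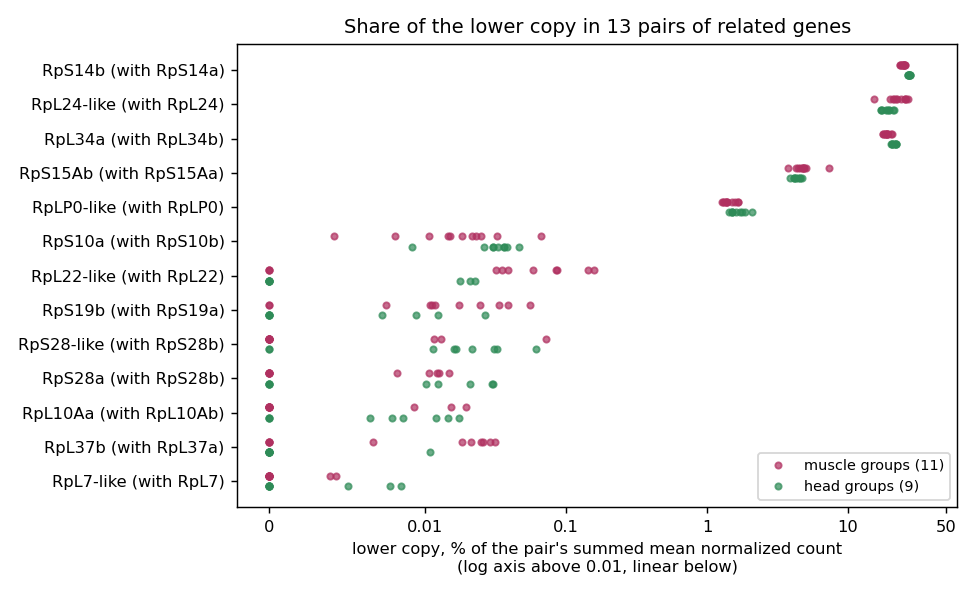
Share of the lower copy in the summed mean of each of 13 pairs of related ribosomal protein genes, in percent on an axis that is logarithmic above 0.01 and linear below, with 1 point per group (11 of muscle, 9 of heads). RpS14b, RpL24-like, RpL34a, RpS15Ab and RpLP0-like hold over 1% in every group, and the other 8 lie below 0.158%.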

How the data were processed

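The 14 mRNA tables were made by the authors from single-end reads aligned to dm6 with STAR, counted per gene by HTSeq in its intersection-strict mode, ignoring strand, and scaled and compared with DESeq. The signal that the authors deposited is the mean normalized count of a gene over the 3 libraries of a group. The tables also hold the authors' fold changes and p-values, which are the study's own comparisons and were not used. Values per library were not analysed here, so means carry no SD and no test was run. The depth of single libraries is unknown, and the summed group means stand in for it.

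The 92 members and all gene lists were chosen with earlier results of these data known. For each comparison the log2 ratio of the second to the first group mean was computed with Python 3.11.15, numpy 2.4.6 and pandas 2.3.3, for genes with a mean of at least 10 over both groups. A gene counted as past the fold at 1.2-fold, and its percent among all genes kept was set beside the members. The median over members was read beside the median over all genes kept. WT controls of a tissue, which were scaled apart, were compared after centring on all genes. The computation was tested on simulated means. Members were named from the 3 largest ratios in each direction per comparison at 50 or more, pairs of related genes and the extremes per kb. Not all of these are given. Members past the fold in both double mutants were also to be named, but there were none. Of the other lists, at most 5 genes past the fold were named per comparison beside sta, Rack1, Thor, Myc, Xrp1 and Trf2. RpL36, RpLP0 and members past 1.2-fold were added after their values were seen. Gene positions and transcript lengths came from Ensembl and sequence from the dm6 assembly of RefSeq. Values of some members are not reported here. No protein table was used, and levels between genes are per kb of the canonical transcript. Coding lengths came with the annotation, but levels per kb of coding sequence were not computed. Titles and descriptions of the muscle WT controls disagree on their table, and titles were used. The 2 small RNA tables and 75 libraries of other assays were not used.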

Additional observations from a re-analysis of the deposited data

How the results depend on the processing

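No paired analysis was possible because the tables hold group means without values per library. For the same reason leaving out single replicates was not run. The 14 member medians kept their sign under every alternative. Those from a minimum mean of 50, no minimum with a pseudocount of 1, all genes centred, or without related pairs moved by less than the spread of the WT controls, an SD of 0.020 in muscle and 0.15 in heads. In heads that SD is about the size of the member medians of Pcl (0.13), esc E(z) (0.14) and esc (0.16), so staying below it says little there. Equal sums gave 1.11 for age in WT muscle, 0.10 for Pcl muscle and 0.075 for esc E(z) muscle. The largest gap between WT muscle controls was 0.054 on that scaling. After seeing the data, 2 further scalings were added. Equal sums outside the mitochondrial genome gave 0.82 for age. Centring on genes with a mean of at least 1000 gave 0.60 for age, 0.029 for esc, 0.10 for Pcl, 0.051 for Su(z)12 and 0.14 for p55 muscle. The age median therefore depends on the scaling for its size, not for its direction, in these settings. With sums free of the mitochondrial genome the member share was 3.53% at 3d and 6.22% at 30d in WT muscle.

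Counts depend on the fold. Shares of all genes at 1.1-fold, at 1.5-fold or with a pseudocount of 1 are not given here. The counts below therefore show only how the setting changes them, and not how members differ from other genes. At 1.5-fold, 11 members were higher with age in place of 73, 0 in Su(z)12 heads in place of 70, 1 in Pcl Su(z)12 heads in place of 6, and 0 in place of 6 in p55 muscle, 8 in E(z) heads, 3 in esc E(z) heads, 2 each in esc heads, Pcl heads and esc E(z) muscle, and 1 each in Pcl and Su(z)12 muscle, while 0 were lower in any comparison, in place of 2 in Pcl Su(z)12 and 1 each with age and in E(z) and Su(z)12 muscle. At 1.1-fold, 65 were higher in E(z) and 65 in Pcl Su(z)12 heads, 51 in esc, 44 in esc E(z) and 38 in Pcl heads, 56 in p55, 13 in esc E(z), 20 in Pcl, 9 in esc, 18 in Su(z)12, 3 in E(z) and 1 in Pcl Su(z)12 muscle. Lower at 1.1-fold were 3 in E(z) and 1 each in esc and Pcl muscle, in place of 1, 0 and 0, beside 3 in Pcl Su(z)12 muscle in place of 2, and 1 each, as at 1.2-fold, with age and in Su(z)12 muscle. With no minimum and a pseudocount of 1, low members entered and 22 of 28 counts moved by over 1.5 times: the higher counts were 2 to 10 in mutant muscle and 4 to 8 in mutant heads other than Su(z)12 (75), with 75 for age, and the lower counts 0 to 7. Shares of low copies within a pair moved with a pseudocount of 1 in 97 values and not in 109.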
